A study of Arabidopsis thaliana with 8 samples.

Results

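The light reactions of photosynthesis run in 2 large pigment complexes of the chloroplast, photosystem I (PSI) and photosystem II (PSII), and each is fed by an antenna of chlorophyll-binding proteins. The genes described here are the 43 nuclear genes that encode the PSI antenna (LHCA), the PSII antenna (LHCB) and the nuclear subunits of both photosystems (PSA and PSB). They were taken by gene identifier from a count table of 37336 Arabidopsis thaliana genes, with no threshold on their values, and fall into 6 PSI antenna, 14 PSII antenna, 12 PSI subunit and 11 PSII subunit genes. All 43 passed the expression filter that left 23916 genes for testing.

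RNA was made from leaves of 4 genotypes in the Col-0 ecotype, with 2 libraries each: the double mutant mips1 big, the single mutants mips1 and big, and the wild type Col-0. MIPS1 encodes an enzyme of myo-inositol synthesis, and mips1, a T-DNA insertion line, forms lesions on its leaves in long days. BIG encodes a very large protein tied to auxin transport, and the labels name that gene but not the allele, which the study's text calls somi2, an EMS allele with a small deletion that brings in a stop codon. According to the labels, every plant spent 1 week in vitro, 2 weeks in soil in short days (8 h of light) and then 5 days in long days (16 h of light), while the study's methods give other lengths for the short-day and long-day periods. RNA was pooled from rosette leaves of several plants, and nothing says more of how the 2 libraries of a genotype were kept apart, so p-values measure the spread between these libraries only.

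Antenna proteins are made in the cytosol, imported into the chloroplast and inserted into the thylakoid membrane with chlorophyll. Their genes are known as a tightly co-regulated group that responds to light, to the circadian clock, to the transcription factors GLK1 and GLK2 and to signals that the chloroplast sends to the nucleus. The BIG gene itself also carries the older name DARK OVER-EXPRESSION OF CAB 1, where CAB is an earlier name for LHCB.

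Libraries held 50123257 to 104501879 counts. MIPS1 had 9.85 and 10.8 CPM in mips1 big and 5.30 and 6.12 CPM in mips1, against 104 and 94.7 CPM in big and 120 and 152 CPM in Col-0, where CPM are counts relative to the TMM-scaled total of the library. BIG had 93.4 and 89.9 CPM in mips1 big, 205 and 212 CPM in mips1 and 57.2 and 62.1 CPM in big, against 113 and 132 CPM in Col-0. By quantitative RT-PCR the study found BIG strongly reduced in somi2, and it also lists BIG among the genes lower there by RNA sequencing. In these counts BIG was lower in both big lines than in Col-0 but not lost. A small deletion need not remove the transcript, so this checks the big labels only in part. The 2 libraries of a genotype differed over genes by a chi-square per degree of freedom of 4.952 to 10.8 within the mutants, against 128.4 within Col-0, whose libraries stood furthest apart. Genes of the chloroplast and mitochondrial genomes took 0.644% to 1.61% of the counts in the mutant libraries, against 2.67% and 0.926% in the Col-0 libraries.

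Summed over the 43 genes, expression reached 111461 and 109633 CPM in mips1 big, 59399 and 58971 CPM in mips1 and 145462 and 141972 CPM in big, against 246251 and 237293 CPM in Col-0. No genotype overlapped another, and mips1 was lowest. As a share of the mean Col-0 level, the sum was 45.7% in mips1 big, 24.5% in mips1 and 59.4% in big. Without any scaling, the 43 genes took 12.2% and 12.1% of all counts in mips1 big, 6.35% and 6.19% in mips1 and 14.7% and 14.6% in big, against 20.6% and 20.2% in Col-0, with 95% Wilson intervals at most 0.0224 percentage points wide that cover counting error only. In RNA from whole leaves, fewer cells of a type and less RNA per cell cannot be told apart.

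**Figure D1:**
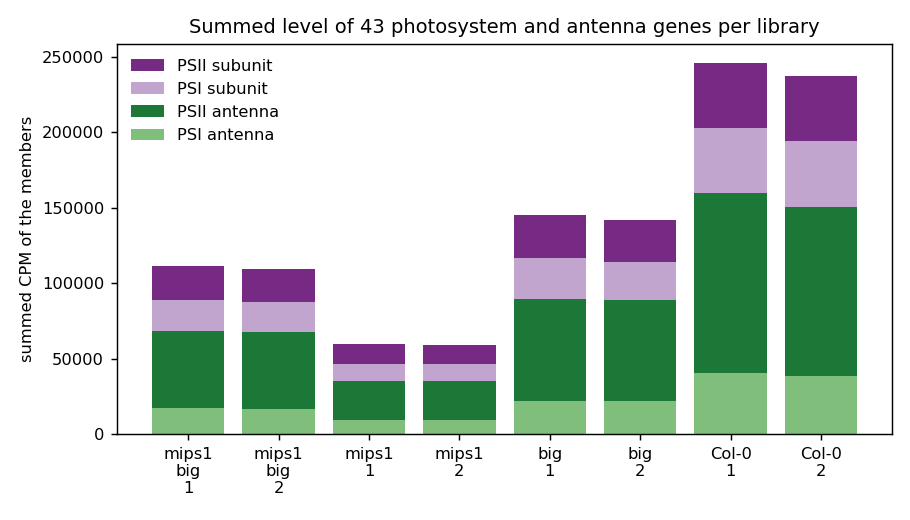
Summed CPM of the 43 genes (y axis) in each library (x axis), stacked by class, with 2 libraries per genotype. The mips1 bars are lowest at 59399 and 58971 CPM, and the Col-0 bars are highest at 246251 and 237293 CPM.

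The comparison of mips1 with Col-0 asks what the loss of MIPS1 does in an otherwise wild-type plant. In mips1, 42 of the 43 genes fell and none rose at an adjusted p under 0.05 (quasi-likelihood test of edgeR, with p-values adjusted over all 23916 genes by Benjamini-Hochberg, here and for every adjusted p below), where 37.1% of all tested genes fell and 36% rose. All 42 fell by at least 1 on the log2 scale, which 14.3% of all tested genes did. The median log2 fold change of the 43 genes was -1.90, beside -0.03 over all tested genes. By class the median was -2.16 for the PSII antenna, -1.94 for the PSI antenna, -1.87 for PSI subunits and -1.84 for PSII subunits. The exception was LHCB4.3, which alone had an unadjusted p under 0.05 in the upward direction and which DESeq2 called higher, and edgeR too without Col-0 replicate 2 (adjusted p = 0.000282) or without mips1 replicate 1 (adjusted p = 0.0404).

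**Figure D2:**
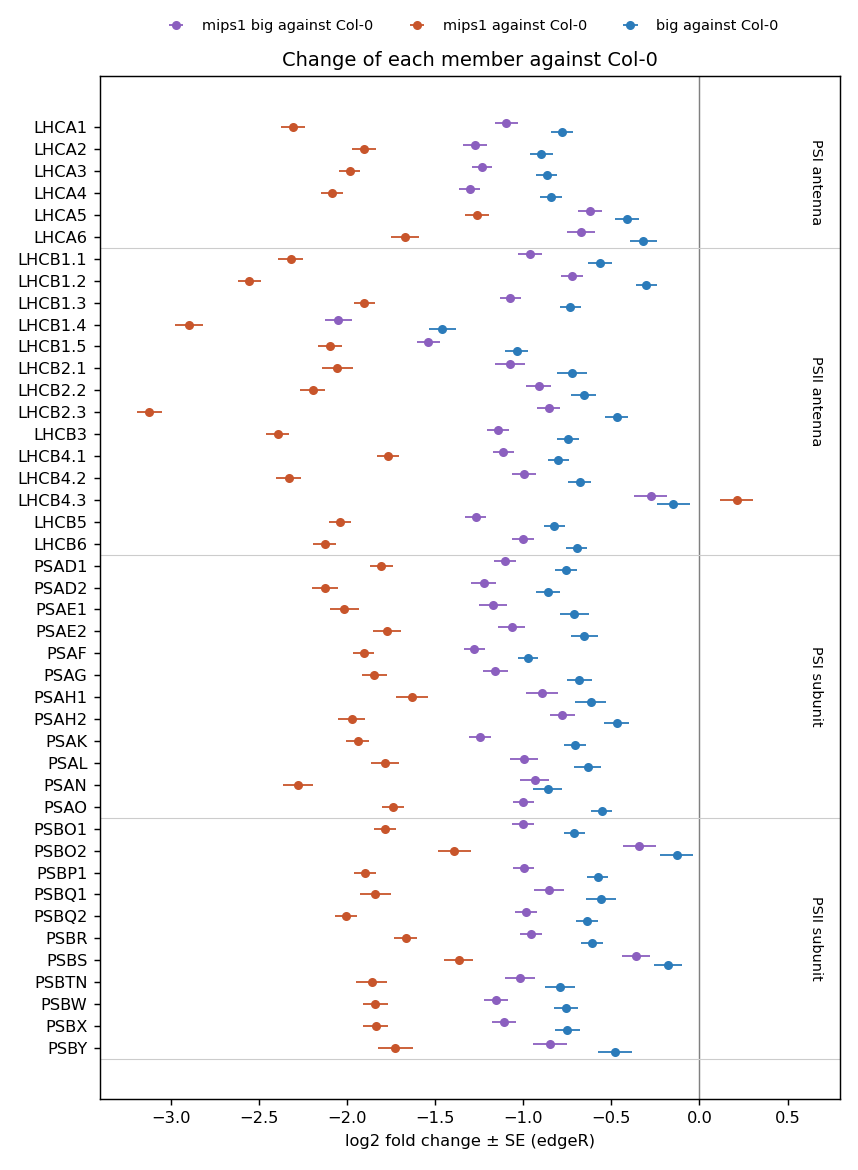
Log2 fold change against Col-0 (x axis) with its standard error for each of the 43 genes (y axis, grouped by class) in mips1 big, mips1 and big, 2 libraries per genotype. All mips1 points but that of LHCB4.3 lie between -3.12 for LHCB2.3 and -1.26 for LHCA5, left of the points of the same gene in mips1 big and big.

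LHCB1 and LHCB2 make up the trimers of the main light-harvesting complex, LHCII, whose proteins can move between the photosystems. The 5 LHCB1 genes lie in 2 clusters, LHCB1.1, LHCB1.2 and LHCB1.3 on chromosome 1 and LHCB1.4 and LHCB1.5 on chromosome 2. LHCB1.5 (AT2G34420) was the most abundant of the 43 transcripts per length in mips1 and Col-0, with 4680 and 4669 RPKM (CPM divided by the exon length in kilobases) in mips1, against 21332 and 18678 RPKM in Col-0. LHCB1.3 (AT1G29930) came next with 4583 and 4477 RPKM in mips1, against 17645 and 16190 RPKM in Col-0. In both genes every mips1 library lay far below every Col-0 library, and the log2 fold changes were -2.10 ± 0.069 for LHCB1.5 and -1.90 ± 0.061 for LHCB1.3 (SE; adjusted p = 3.02e-11 and 2.48e-11).

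Within LHCB1 the fall was uneven. LHCB1.4 (AT2G34430) had 1422 and 1364 CPM in mips1, against 11168 and 9568 CPM in Col-0, a log2 fold change of -2.90 ± 0.080 (adjusted p = 6.76e-12). LHCB1.2 (AT1G29910) had 1639 and 1567 CPM in mips1, against 9686 and 9131 CPM in Col-0, a log2 fold change of -2.55 ± 0.064 (adjusted p = 2.79e-12). Both were reduced more than LHCB1.1, at -2.32, and than the 2 most abundant copies, and no groups overlapped. With the 5 copies summed before the fit, LHCB1 changed by -2.21 ± 0.061 (adjusted p = 7.2e-12).

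The largest change of all 43 genes was in LHCB2.3 (AT3G27690). It had 170 and 173 CPM in mips1, against 1463 and 1519 CPM in Col-0, a log2 fold change of -3.12 ± 0.070 (adjusted p = 1.09e-12), so that mips1 kept 11.5% of the Col-0 level. The other copies, LHCB2.1 and LHCB2.2, kept 24.1% and 21.8%, with log2 fold changes of -2.05 and -2.19. LHCB3, the third protein of LHCII trimers, kept 19% (1913 and 1939 CPM in mips1, against 10210 and 10013 CPM in Col-0).

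LHCB4, LHCB5 and LHCB6, also named CP29, CP26 and CP24, are monomeric antenna proteins that link the trimers to the PSII core. LHCB4.2 fell more than LHCB4.1 in mips1, with log2 fold changes of -2.33 ± 0.070 and -1.77 ± 0.061. LHCB4.3 (AT2G40100) was the odd one: it had 40.9 and 44.4 CPM in mips1, against 32.9 and 40.6 CPM in Col-0, with a log2 fold change of 0.21 ± 0.095 that missed the threshold (adjusted p = 0.0634). Its mips1 libraries lay just above those of Col-0, with 40.6 CPM the nearest Col-0 value. It is also the weakest of the 43 genes, at 28.2 and 30.7 RPKM in mips1 and 22.7 and 28.1 RPKM in Col-0, though still with 1379 to 4877 counts in a library. LHCB5 and LHCB6 changed by -2.04 and -2.13.

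**Figure D3:**
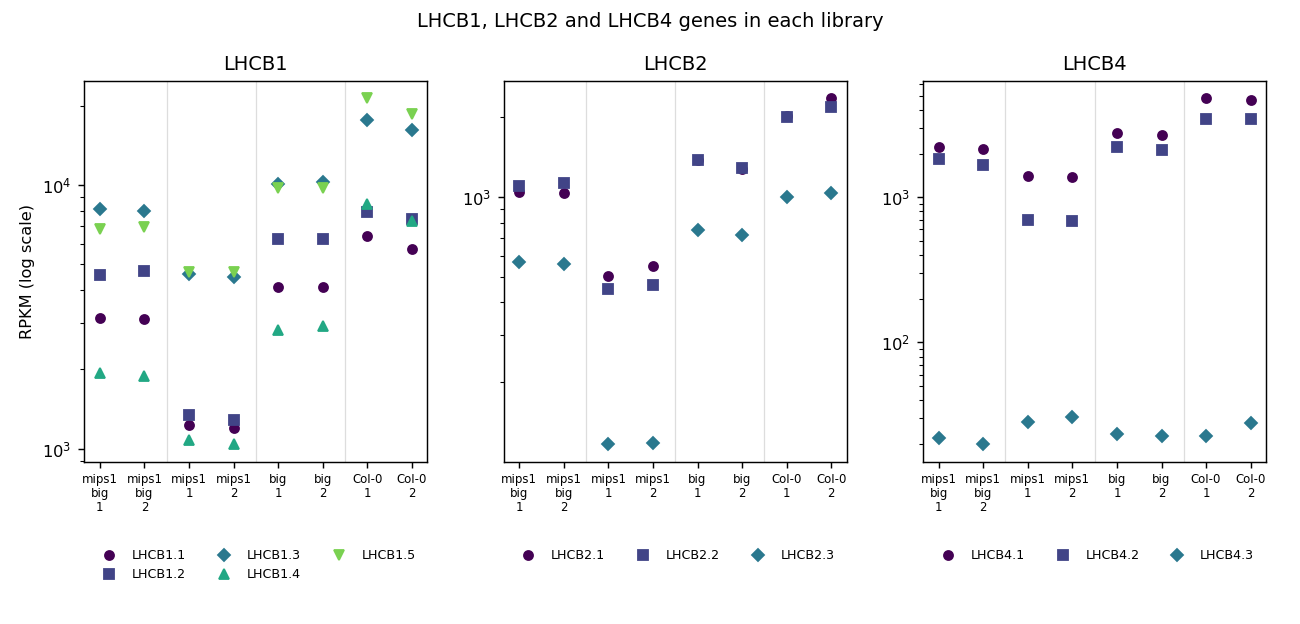
RPKM on a log scale (y axis) of the LHCB1, LHCB2 and LHCB4 genes in each library (x axis), 1 point per gene and library, 2 libraries per genotype. LHCB2.3 stands at 116 and 118 RPKM in mips1 against 999 and 1037 RPKM in Col-0, while LHCB4.3 stays between 19.9 and 30.7 RPKM in all 8 libraries.

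The PSI antenna is a belt of LHCA1 to LHCA4, with LHCA5 and LHCA6 present in small amounts, where they join PSI to the chloroplast NADH dehydrogenase-like complex. The belt genes fell in mips1 by a log2 fold change of -2.30 ± 0.068 for LHCA1, -2.09 ± 0.063 for LHCA4, -1.98 ± 0.059 for LHCA3 and -1.90 ± 0.067 for LHCA2. LHCA1 (AT3G54890), with the largest fall, had 2006 and 1980 CPM in mips1, against 10383 and 9294 CPM in Col-0. The linker genes changed least of the 6: LHCA5 had 64.4 and 67.3 CPM in mips1, against 151 and 165 CPM in Col-0 (-1.26 ± 0.069), and LHCA6 had 53.2 and 52.1 CPM in mips1, against 155 and 180 CPM in Col-0 (-1.67 ± 0.080). They are also the least abundant LHCA transcripts, at 133 to 155 RPKM in Col-0 beside 5066 to 10488 RPKM for the belt genes.

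All 12 PSI subunit genes fell in mips1, within a narrow range of log2 fold changes from -2.28 to -1.63. PSAN (AT5G64040), a subunit on the lumenal side, where plastocyanin delivers electrons, was at the lower end with 722 and 765 CPM in mips1, against 3385 and 3825 CPM in Col-0 (-2.28 ± 0.086). PSAF, which helps to dock plastocyanin, changed by -1.91. PSAD and PSAE, which form the docking site of ferredoxin, are encoded by pairs of genes that changed by -1.80 and -2.12 (PSAD1 and PSAD2) and by -2.01 and -1.77 (PSAE1 and PSAE2). PSAG and PSAK, small subunits at the outer side of the core, changed by -1.84 and -1.94. PSAL, PSAO and PSAH, on the side of PSI where LHCII binds, changed by -1.78 (PSAL), -1.74 (PSAO), -1.63 (PSAH1) and -1.97 (PSAH2), and in none of the 12 did a mips1 library reach a Col-0 library, as in 42.9% of all tested genes.

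The PSII subunits include PSBO, PSBP and PSBQ, the extrinsic proteins that protect the oxygen-evolving complex, and PSBS, which triggers the harmless release of excess light energy. PSBO1 (AT5G66570), the main PSBO gene, had 2188 and 2191 CPM in mips1, against 7629 and 7434 CPM in Col-0 (-1.78 ± 0.062). Its paralogue PSBO2 (AT3G50820) fell less, with 579 and 603 CPM in mips1, against 1402 and 1697 CPM in Col-0 (-1.39 ± 0.095), and so did PSBS (AT1G44575), with 483 and 524 CPM in mips1, against 1202 and 1392 CPM in Col-0 (-1.36 ± 0.082). The mips1 libraries lay below the Col-0 libraries in all 3. PSBP1, PSBQ1 and PSBQ2 changed by -1.90, -1.84 and -2.004, PSBR, which stabilises the oxygen-evolving complex, by -1.67, and the low-mass subunits PSBTN, PSBW, PSBX and PSBY by -1.86 to -1.73.

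The comparison of big with Col-0 addresses the effect of BIG alone, and it shares the Col-0 libraries with the comparison above. In big, 40 of the 43 genes fell and none rose, where 23.6% of all tested genes fell and 25.6% rose. At an unadjusted p under 0.05, 41 were lower and 0 higher, as they were by DESeq2. Over all tested genes, 6396 were lower and 6783 higher at that unadjusted p, and 5614 lower and 5065 higher by DESeq2. The median log2 fold change of -0.70 (-0.0018 over all tested genes) was smaller in size than in mips1. By class it was -0.81 for the PSI antenna, -0.71 for the PSII antenna, -0.69 for PSI subunits and -0.61 for PSII subunits.

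Only LHCB1.4 and LHCB1.5 fell in big by at least 1 on the log2 scale, as 2.51% of all tested genes did. LHCB1.4 had 3718 and 3824 CPM in big, against 11168 and 9568 CPM in Col-0 (-1.46 ± 0.076, adjusted p = 2.1e-08). LHCB1.5 had 10200 and 10184 CPM in big, against 22291 and 19519 CPM in Col-0 (-1.04 ± 0.067, adjusted p = 1.18e-07). LHCB1.2 in the chromosome 1 cluster fell least of the LHCB1 genes, with 7607 and 7671 CPM in big, against 9686 and 9131 CPM in Col-0 (-0.30 ± 0.060, adjusted p = 0.00128). The levels in big were graded and not split by cluster. LHCB1.4 kept 36.4% of the Col-0 level, LHCB1.5 48.8%, LHCB1.3 60.2%, LHCB1.1 67.6% and LHCB1.2 81.2%. With library totals alone as the scale, LHCB1.2 changed by -0.027 in big and lost its call (adjusted p = 0.729).

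LHCB2.3, which fell most in mips1, fell by a smaller amount in big: it had 1098 and 1055 CPM in big, against 1463 and 1519 CPM in Col-0 (-0.47 ± 0.064). PSAF (-0.97), LHCA2 (-0.90) and LHCA3 (-0.87) followed LHCB1.4 and LHCB1.5 in the size of the fall. The 3 genes that missed the threshold in big were PSBS (-0.18 ± 0.080, adjusted p = 0.0843), LHCB4.3 (-0.15 ± 0.096, adjusted p = 0.226) and PSBO2 (-0.13 ± 0.093, adjusted p = 0.274). PSBO2 had 1472 and 1362 CPM in big, against 1402 and 1697 CPM in Col-0, so that the groups overlapped. Without Col-0 replicate 1 all 3 passed the threshold, at -0.28 (PSBS), -0.29 (LHCB4.3) and -0.26 (PSBO2), whereas without Col-0 replicate 2 none did, at -0.07 (PSBS), 0.014 (LHCB4.3) and 0.013 (PSBO2).

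All 43 genes fell in mips1 big against Col-0, where 30.7% of all tested genes fell and 31.1% rose, with a median log2 fold change of -1.0004 (0.00 over all tested genes). Of these, 22 fell by at least 1 on the log2 scale, as did 5.01% of all tested genes. LHCB1.4 again changed most, with 2538 and 2473 CPM in mips1 big, against 11168 and 9568 CPM in Col-0 (-2.05 ± 0.077, adjusted p = 6.81e-10), followed by LHCB1.5 at -1.54. The smallest changes were those of LHCB4.3 (-0.28 ± 0.096, adjusted p = 0.0246), PSBO2 (-0.34 ± 0.093, adjusted p = 0.00673) and PSBS (-0.36 ± 0.080, adjusted p = 0.00196), and these 3 lay above 0 when library totals alone set the scale (0.10, 0.040 and 0.024). By class the median was -1.16 for the PSI antenna, -1.08 for PSI subunits, -1.04 for the PSII antenna and -0.98 for PSII subunits.

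Setting mips1 big against big shows the effect of mips1 when BIG is also mutated. Here 38 of the 43 genes fell and none rose, where 10.8% of all tested genes fell and 8.46% rose. At an unadjusted p under 0.05, 41 were lower and 0 higher, beside 4103 lower and 3524 higher over all tested genes. DESeq2 called 37 lower and 0 higher, beside 2022 lower and 2007 higher over all tested genes. The changes were small, with a median log2 fold change of -0.35 (-0.0045 over all tested genes) and a range from -0.59 for LHCB1.4 to -0.08 for PSAN, and none fell by 1 on the log2 scale, as 1.35% of all tested genes did. LHCB1.4 had 2538 and 2473 CPM in mips1 big, against 3718 and 3824 CPM in big (adjusted p = 0.000123). PSAK had 1798 and 1786 CPM in mips1 big, against 2664 and 2540 CPM in big (-0.54 ± 0.062, adjusted p = 5.94e-05).

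The 5 genes that missed the threshold between mips1 big and big were PSAN, PSBTN, LHCB4.3, PSBS and PSBO2. PSAN had 1837 and 1935 CPM in mips1 big, against 2112 and 1862 CPM in big (-0.08 ± 0.082, adjusted p = 0.574), and its groups overlapped. Without big replicate 1 fewer of the photosystem and antenna genes were called lower, and so were fewer of all tested genes. The lone big library was then assumed to vary like the other genotypes. The median log2 fold change of the photosystem and antenna genes was -0.32 in that fit, beside -0.0015 over all tested genes.

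Against mips1, mips1 big showed 42 genes higher and 1 lower, where 39.1% of all tested genes were higher and 38.9% lower. The median log2 fold change was 0.84 (0.01 over all tested genes). LHCB2.3 had 833 and 816 CPM in mips1 big, against 170 and 173 CPM in mips1 (2.26 ± 0.067, adjusted p = 1.39e-11), and LHCB1.2 had 5601 and 5800 CPM in mips1 big, against 1639 and 1567 CPM in mips1 (1.83 ± 0.062, adjusted p = 4.19e-11). These 2 antenna genes, with LHCB1.1 (1.36), LHCB4.2 (1.34) and PSAN (1.34), rose most. LHCB1.5 rose least of the 42 (0.56 ± 0.066), with 7150 and 7258 CPM in mips1 big, against 4890 and 4879 CPM in mips1. The gene that fell was LHCB4.3, with 32.1 and 28.8 CPM in mips1 big, against 40.9 and 44.4 CPM in mips1 (-0.49 ± 0.095, adjusted p = 0.000477).

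Whether the effect of mips1 differed between the big and Col-0 backgrounds was tested as the interaction, the log2 fold change of mips1 big against big minus that of mips1 against Col-0. It was higher than 0 for 42 genes and lower for 1, where 30.8% of all tested genes were higher and 31.2% lower, with a median of 1.55 (0.02 over all tested genes). For LHCB2.3 the interaction was 2.73 ± 0.092 (adjusted p = 1.57e-10), the difference between a change of -0.39 in the big background and one of -3.12 in the Col-0 background. PSAN, with no called change in the big background, had an interaction of 2.202 ± 0.12 (adjusted p = 7.46e-09). The single gene with a negative interaction, LHCB4.3, was close to the threshold (-0.34 ± 0.13, adjusted p = 0.0443). It lost its call with organelle genes left out of the scaling and without any 1 of Col-0 replicate 1, big replicate 1, big replicate 2, mips1 replicate 2 and mips1 big replicate 2, with adjusted p from 0.0527 to 0.21.

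**Figure D4:**
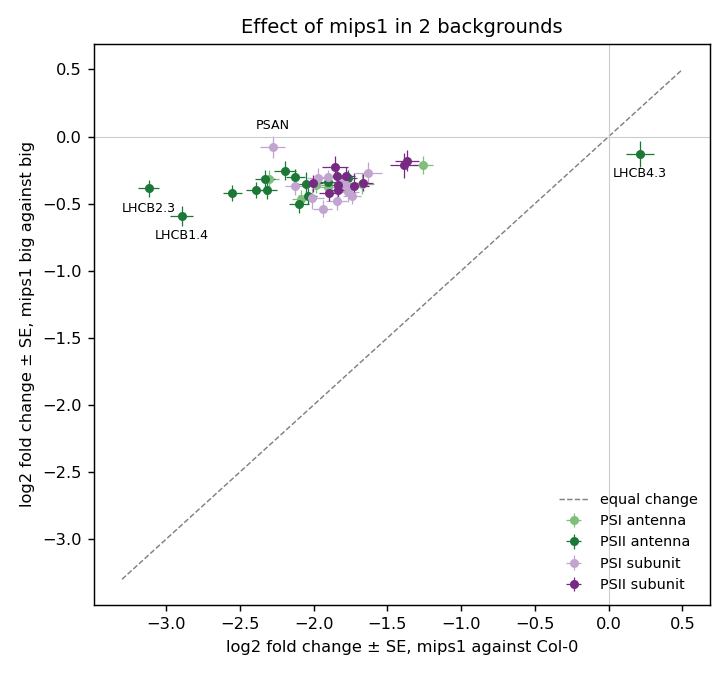
Log2 fold change of mips1 big against big (y axis) and of mips1 against Col-0 (x axis), with standard errors, 1 point per gene coloured by class. The 42 genes that fell in mips1 lie above the dashed line of equal change, between -0.59 and -0.08 on the y axis and between -3.12 and -1.26 on the x axis, and LHCB4.3 lies just below that line.

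The genes took the same order of levels almost throughout. For 40 of the 43, both mips1 libraries lay below both of mips1 big, these below both of big, and these below both of Col-0, an order without overlap that 6.27% of all tested genes had. Among the exceptions, PSAN overlapped between mips1 big and big, and PSBO2 between big and Col-0. LHCB4.3, the third exception, was the one gene of the 43 whose mips1 libraries were not the lowest, as they were in 33% of all tested genes, and here they were the highest of the 8.

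Levels of paralogues within a family did not all shift in step. LHCB2.3 made up 21.0% and 20.4% of the summed LHCB2 RPKM in mips1 big and 10.9% and 10.4% in mips1, against 21.4% and 22.0% in big and 19.9% and 18.6% in Col-0, so that its share was low in mips1 alone. LHCB1.4 made up 7.87% and 7.64% of LHCB1 in mips1 big, 8.39% and 8.21% in mips1 and 8.58% and 8.76% in big, against 13.8% and 13.2% in Col-0, so that its share was lower in all 3 mutants. LHCB1.2 had a share of 18.6% and 19.2% in mips1 big, 10.4% and 10.1% in mips1 and 18.8% and 18.8% in big, against 12.8% and 13.5% in Col-0.

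PSBO2 made up 27.3% and 26.6% of PSBO in mips1 big, 23.1% and 23.8% in mips1 and 26.6% and 25.2% in big, against 17.3% and 20.6% in Col-0, and so had a higher share in every mutant. PSAD, PSAE and PSBQ shares moved less: PSAD1 kept 57.4% to 63.1% of PSAD, PSAE1 69.7% to 73.7% of PSAE and PSBQ1 40.2% to 46.1% of PSBQ over the 8 libraries. LHCB4.1 took 65.8% and 66.0% of LHCB4 in mips1, against 57.9% and 57.1% in Col-0. These shares are given without a test.

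**Figure D5:**
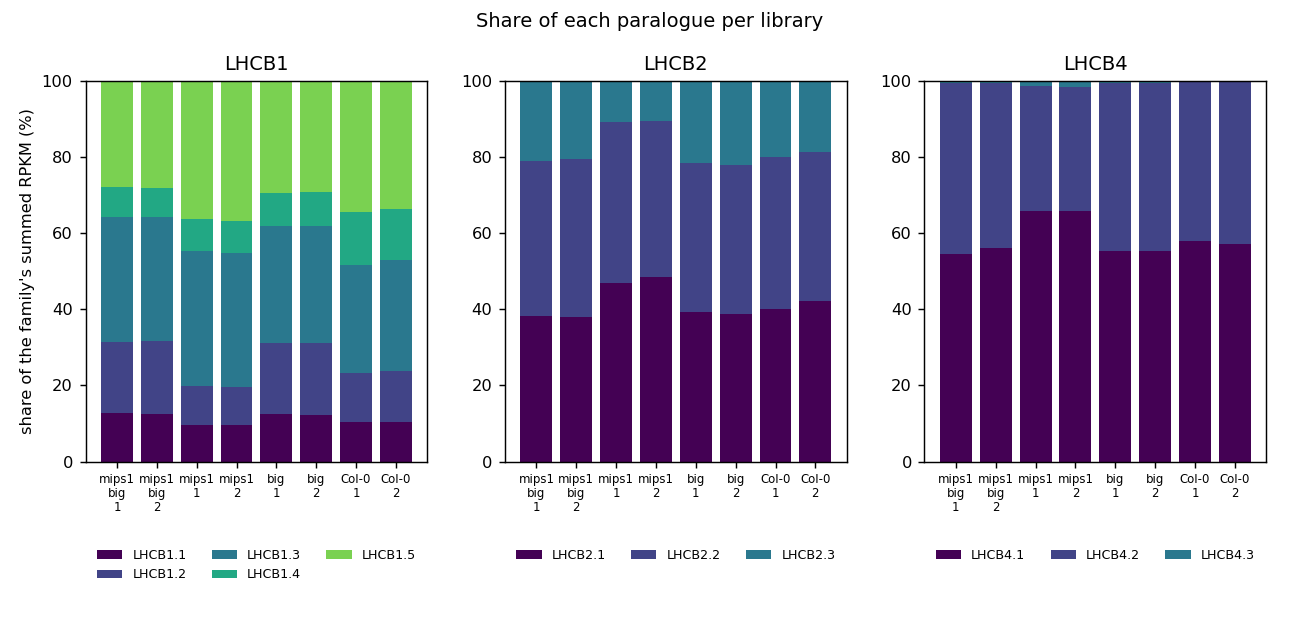
Share of each paralogue in the summed RPKM of its family (y axis, percent) in each library (x axis), for LHCB1, LHCB2 and LHCB4, 2 libraries per genotype. LHCB2.3 narrows to 10.9% and 10.4% in mips1, and LHCB1.4 is widest in Col-0 at 13.8% and 13.2%.

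Copies this alike can share reads. Of the 75-base windows in the exons of each gene, all were found once in the genome for 35 of the 43 genes, LHCB2.3 and LHCB4.3 among them. The other 8 were LHCB2.2 (79.5% found once), LHCB2.1 (83.8%), the 5 LHCB1 genes (89.6% to 96.3%) and LHCA2 (97.1%). The counting also ignored strand and credited a read in 2 overlapping genes to both, and 17 of the 43 genes overlap exons of another gene, 7 of them over at least 20% of their exon length. LHCB1.5 is covered over its whole length by a gene on the other strand, so that reads of the 2 cannot be told apart, and LHCB2.3 is overlapped over 40.6% of its exon length, PSAG over 61.4% and PSAH1 over 53.3%.

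The 250 bases before the annotated start are shown for the LHCB2 genes, of which LHCB2.3 stood apart in mips1, and for LHCB4.1 and LHCB4.3, of which LHCB4.1 fell in mips1 and LHCB4.3 missed the threshold. They were read 5′ to 3′ on the strand of each gene from the RefSeq TAIR10.1 genome, whose coordinates for all 145 exons of the 43 genes equal those of the count table. Capitals mark the motifs searched on both strands, the G-box (CACGTG), the I-box (GATAAG), the CCA1-binding site (AAAAATCT), the evening element (AAAATATCT), a motif associated with GLK factors (CCAATC), its shorter form (CCAAT) and the core of the W-box (TTGAC), and, on the strand of the gene only, the core promoter motif (TATAAA).
LHCB2.3, chr3:10255656-10255905, + strand: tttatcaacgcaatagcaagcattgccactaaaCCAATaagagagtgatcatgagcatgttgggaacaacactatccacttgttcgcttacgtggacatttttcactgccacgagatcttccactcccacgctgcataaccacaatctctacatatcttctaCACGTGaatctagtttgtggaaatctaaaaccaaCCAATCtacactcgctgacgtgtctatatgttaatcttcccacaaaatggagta
LHCB2.1, chr2:1824481-1824730, - strand: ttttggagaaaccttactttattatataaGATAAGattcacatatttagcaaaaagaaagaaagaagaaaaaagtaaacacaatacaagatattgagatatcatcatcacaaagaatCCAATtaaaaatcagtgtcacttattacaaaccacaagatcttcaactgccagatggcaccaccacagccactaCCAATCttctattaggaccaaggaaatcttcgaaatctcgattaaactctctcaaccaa
LHCB2.2, chr2:1800473-1800722, - strand: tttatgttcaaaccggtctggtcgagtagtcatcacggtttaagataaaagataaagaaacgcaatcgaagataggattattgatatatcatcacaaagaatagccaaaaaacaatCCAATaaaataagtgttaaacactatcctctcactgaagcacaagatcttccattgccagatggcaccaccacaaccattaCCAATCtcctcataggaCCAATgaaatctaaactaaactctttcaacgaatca
LHCB4.1, chr5:208616-208865, + strand: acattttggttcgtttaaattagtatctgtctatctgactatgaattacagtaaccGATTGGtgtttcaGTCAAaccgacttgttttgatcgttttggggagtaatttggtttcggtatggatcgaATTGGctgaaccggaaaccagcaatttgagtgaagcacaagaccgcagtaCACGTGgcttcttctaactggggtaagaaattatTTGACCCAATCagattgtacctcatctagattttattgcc
LHCB4.3, chr2:16745378-16745627, + strand: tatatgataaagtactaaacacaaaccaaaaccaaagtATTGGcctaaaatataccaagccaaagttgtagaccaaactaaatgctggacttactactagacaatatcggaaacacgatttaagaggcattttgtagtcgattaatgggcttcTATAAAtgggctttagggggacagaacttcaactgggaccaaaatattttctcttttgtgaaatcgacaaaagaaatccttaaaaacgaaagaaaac

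All 3 LHCB2 windows hold CCAATC, at -54 to -49 from the start in LHCB2.3, -59 to -54 in LHCB2.1 and -53 to -48 in LHCB2.2, while CACGTG is present in LHCB2.3 alone of these, at -88 to -83. LHCB4.1 holds CACGTG at -74 to -69 and CCAATC at -194 to -189 on the opposite strand and at -35 to -30 on its own strand, where it runs on directly from a TTGAC. LHCB4.3 holds neither CACGTG nor CCAATC, and has CCAAT and TATAAA. LHCB4.2, which fell more than LHCB4.1 in mips1 and whose window is not printed, holds CCAATC at -76 to -71 and no CACGTG.

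Over the 43 promoter windows, CCAATC was found in 11 (25.6%), beside 10.7% of the windows of 23775 tested nuclear genes. It was found in 7 of the 14 PSII antenna and 3 of the 6 PSI antenna windows, 1 of the 11 PSII subunit and 0 of the 12 PSI subunit windows. CACGTG was found in 9 (20.9%, beside 6.79% of all windows), GATAAG in 9 (20.9%, beside 12.5%) and AAAAATCT in 5 (11.6%, beside 6.38%). TTGAC was found in 12 (27.9%, beside 44.7%), CCAAT in 27 (62.8%, beside 46.9%), TATAAA in 12 (27.9%, beside 30.3%) and AAAATATCT in 1 (2.3%, beside 2.31%). A match only says that these letters stand in the window.

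The genes that carry electrons between and beyond the photosystems moved the same way in mips1, where 37.1% of all tested genes fell and 36% rose. All 7 electron carrier genes fell, with PETE2 (plastocyanin, -1.58) and PETC (the Rieske protein of the cytochrome b6f complex, -1.51) furthest, and so did the 3 ATP synthase genes, with ATPD (-1.74) furthest. All 4 genes for the insertion of antenna proteins fell, LTD (-1.63) and cpSRP43 (-1.54) most, and all 6 genes for PSII assembly and repair, PSB27 (-1.79) and HCF136 (-1.46) most. Of the 4 listed relatives of the antenna proteins, 2 fell and 1 rose. OHP1 fell most (-1.51), and ELIP1 rose (0.95), though ELIP1 was at low levels, with 3.09 and 3.02 CPM in mips1, against 1.098 and 1.93 CPM in Col-0. The 3 thylakoid kinase and phosphatase genes fell as well, STN8 (-1.33) and STN7 (-0.57) most. The kinase STN7 and the phosphatase PPH1 act on LHCII and so on its movement between the photosystems, while the kinase STN8 acts mainly on proteins of the PSII core.

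In big, 6 of 7 electron carrier genes fell and 1 rose, and 3 of 3 ATP synthase genes, 4 of 4 insertion genes, 4 of 6 assembly and repair genes and 3 of 3 kinase and phosphatase genes fell, with medians of -0.48, -0.56, -0.40, -0.33 and -0.60, beside 23.6% of all tested genes that fell and 25.6% that rose. FD2, the main leaf ferredoxin, fell most of these (-1.20), with 889 and 839 CPM in big, against 1881 and 2078 CPM in Col-0. In mips1 big against Col-0, 6 of 7, 3 of 3, 4 of 4, 5 of 6 and 3 of 3 fell in these lists and none rose, with medians of -0.75, -0.82, -0.65, -0.57 and -0.75, beside 30.7% of all tested genes that fell and 31.1% that rose. ELIP2 rose in both big lines but at very low levels, with 0.363 and 0.458 CPM in mips1 big and 0.456 and 0.348 CPM in big, against 0.0478 and 0.153 CPM in Col-0.

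The chloroplast genome encodes the core proteins that the nuclear subunits surround. The 8 chloroplast genes examined summed to 410 and 718 CPM in mips1 big, 707 and 506 CPM in mips1 and 533 and 811 CPM in big, against 9778 and 525 CPM in Col-0. The high value came from Col-0 replicate 1 alone, and edgeR called 0 of the 8 in any comparison (0 at an unadjusted p under 0.05), whereas DESeq2 called 7 lower in mips1 big, 8 in mips1 and 5 in big, each against Col-0. Chloroplast transcripts mostly lack the poly(A) tails by which the RNA was selected. Without Col-0 replicate 1, the nuclear genes gave the same count of 42 lower in mips1, with a median of -1.90.

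Among the known regulators, GLK2 and GLK1, which activate antenna genes, fell in mips1. GLK2 had 63.1 and 63.8 CPM in mips1, against 164 and 199 CPM in Col-0 (-1.52, adjusted p = 5.79e-09), and GLK1 had 133 and 137 CPM in mips1, against 220 and 257 CPM in Col-0 (-0.82). GUN4, which promotes chlorophyll synthesis, had 64.2 and 64.7 CPM in mips1, against 237 and 256 CPM in Col-0 (-1.93). In big they changed by -0.44 (GLK2), -0.34 (GLK1) and -0.37 (GUN4), and in mips1 big against mips1 by 1.08, 0.69 and 1.13. Between mips1 big and big they did not all follow the 43 genes. In CPM, GLK1 was higher in both mips1 big libraries than in both big libraries, GLK2 overlapped and GUN4 was lower. GLK1 in mips1 big also overlapped Col-0, while GLK2 and GUN4 lay below it. The 9 regulators ranged from -0.43 to 0.21 in mips1 big against big. Of the 9 regulators, 4 fell and 4 rose in mips1, where 37.1% of all tested genes fell and 36% rose, and GNL, a GATA factor that promotes greening, rose most (2.07). In big, 4 fell and 2 rose (23.6% and 25.6% of all tested genes). In mips1 big, 2 fell and 4 rose against Col-0 (30.7% and 31.1%), and 1 fell and 1 rose against big (10.8% and 8.46%). The median of the 9 in mips1 big was -0.08 against Col-0 and 0.13 against big, beside -1.0004 and -0.35 for the 43 genes.

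Clock genes differed between genotypes as well, and the time of day of harvest is not given in the sources used here. TOC1, an evening gene, had 149 and 142 CPM in mips1, against 48.4 and 48.2 CPM in Col-0 (1.59), and PRR9 fell most of the 9 clock genes there (-1.25). LHY, a morning gene, had 35.2 and 35.1 CPM in mips1 big and 40.2 and 39.4 CPM in big, against 14.7 and 15.9 CPM in Col-0 (1.197 and 1.38), while in mips1 it had 18.3 and 16.0 CPM (0.16, adjusted p = 0.087). CCA1, its close relative, changed by 0.40 in mips1 big, -0.50 in mips1 and 0.55 in big. Of the 9 clock genes, 7 fell and 2 rose in mips1 big, 3 fell and 5 rose in mips1, and 6 fell and 2 rose in big. Of all tested genes, 30.7% fell and 31.1% rose in mips1 big, 37.1% fell and 36% rose in mips1, and 23.6% fell and 25.6% rose in big. The part of the clock genes in the levels of the antenna genes was not tested.

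Markers of cell types and states moved with the genotypes too. The 3 mesophyll markers, RBCS1A, CA1 and RCA, fell in every mutant and summed to 15958 and 14076 CPM in mips1 big, 8463 and 8621 CPM in mips1 and 18182 and 17331 CPM in big, against 25329 and 25409 CPM in Col-0. These markers are photosynthesis-related genes themselves, so their sum cannot tell the amount of mesophyll from the level of such genes. Of the 3 markers of senescing leaves, SAG13 and NYE1 rose in mips1, while SAG12 stayed at 0 or 1 count in every library; the sum was 42.7 and 41.5 CPM in mips1 big, 515 and 512 CPM in mips1 and 20.4 and 17.2 CPM in big, against 21.6 and 20.6 CPM in Col-0. The 2 meristem markers, STM and KNAT1, rose in both big lines, with a sum of 8.86 and 8.27 CPM in mips1 big, 0.0699 and 0.0911 CPM in mips1 and 8.49 and 7.36 CPM in big, against 0.143 and 0.0824 CPM in Col-0.

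Of the 3 epidermis markers, PDF1 and ATML1 rose in both big lines and all 3 fell in mips1, with a sum of 388 and 356 CPM in mips1 big, 70.1 and 73.0 CPM in mips1 and 346 and 351 CPM in big, against 229 and 180 CPM in Col-0. The 4 guard cell markers summed to 58.3 to 62.0 CPM over the mutant libraries, against 75.8 and 78.2 CPM in Col-0. They did not move as one: 3 fell and 1 rose in mips1 big, 3 fell and 0 rose in mips1, and 1 fell and 1 rose in big, beside the shares of all tested genes given above. The 2 xylem markers summed to 26.1 and 24.4 CPM in mips1 big, 10.2 and 11.1 CPM in mips1 and 23.9 and 21.4 CPM in big, against 12.3 and 16.5 CPM in Col-0. The 2 phloem markers summed to 111 and 105 CPM in mips1 big, 159 and 179 CPM in mips1 and 137 and 136 CPM in big, against 149.9 and 190.4 CPM in Col-0, with APL (-1.18) and SUC2 (-0.52) both called lower in mips1 big and APL also in mips1 (-0.80) and big (-0.89). Root and flower markers were near 0, with sums of at most 0.414 CPM for the 4 root genes (RHD6 at 0 in every library) and 2.77 CPM for the 3 flower genes. The part of these differences in cell types and states in the change of the 43 genes was not tested.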

How the data were processed

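Leaf RNA of 4 Arabidopsis thaliana genotypes (mips1 big, mips1, big and Col-0), 2 libraries each, was poly(A)-selected and read as single 75-base reads. The deposited values used here are raw read counts per gene. Per the submitters' processing notes and the file header, the authors trimmed reads with Trimmomatic, aligned them to TAIR10 with STAR (2.7.0d) and counted them with featureCounts (1.6.3) over Araport11 exons, without strand, crediting a read in 2 overlapping genes to both and asking for a mapping quality of at least 10. Reads that align to several places were let in by one option but may have been dropped by the quality limit, so levels of near-identical copies are uncertain. Groups came from the sample titles. The authors' table of normalised counts and their tables of fold changes and p-values were not used.

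Counts of 37336 genes were filtered with filterByExpr (23916 left), scaled by TMM and tested with edgeR (4.0.16, R 4.3.3) by robust quasi-likelihood fits over all 8 libraries in 1 model with 4 residual degrees of freedom. P-values were adjusted by Benjamini-Hochberg over all tested genes and called at 0.05. The standard error is the absolute log2 fold change divided by the square root of F. CPM and RPKM use TMM-scaled library sizes, and RPKM the exon length in the table. The fit was tested on simulated data. DESeq2 (1.42.0), other scalings and filters, a replicate block, summed paralogues and leaving out each library were tried as alternatives. Libraries held 50123257 to 104501879 counts, so the share of a gene set has a counting error far below the differences given.

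The genes were listed by identifier, a rule that uses no expression value, and all 43 may be named. From each other list, all genes were counted, and named with values were at most the 2 called genes with the largest change in a comparison, plus GLK1, GLK2, GUN4, CCA1, LHY, TOC1, MIPS1 and BIG. The marker lists are described by sums, with defining markers named. The choice of these 43 genes and of all lists was nevertheless made with earlier results of these data known. Promoter windows of 250 bases were read from RefSeq TAIR10.1, in which 36868 of 37051 gene spans (99.506%) equal those of the count table.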

Additional observations from a re-analysis of the deposited data

Results flagged for a closer look

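The effect of mips1 differed between the big and Col-0 backgrounds by the interaction test (edgeR's quasi-likelihood test, Benjamini-Hochberg over 23916 genes) for all 43 genes, 42 in the upward direction and 1 in the downward direction, where 30.8% of all tested genes went up and 31.2% down. LHCB2.3 had the largest interaction at 2.73, followed by LHCB1.4 at 2.31 and PSAN at 2.202. The smallest positive interactions were those of LHCA5 at 1.05 and PSBO2 at 1.18. LHCB4.3 was the gene in the downward direction, at -0.34.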

How the results depend on the processing

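Of 4343 values of single genes under the alternatives, 4223 kept direction and side of the threshold, 88 lost a call, 22 gained one and 10 reversed. With library totals alone in place of TMM, the median of all tested genes shifted by up to 0.38 (mips1 big against Col-0), and the share of calls that were higher was 84.5% against 52.1% with TMM in big, 67.4% against 49.2% in mips1, 82.8% against 50.3% in mips1 big against Col-0, 73.9% against 43.9% in mips1 big against big, and 35.9% against 49.7% for the interaction. The median of the 43 genes was then -1.57 in mips1, -0.42 in big, -0.62 in mips1 big against Col-0, -0.24 against big, 0.89 against mips1 and 1.33 for the interaction. Relative to the median of all genes these are -1.87, -0.69, -0.999, -0.35, 0.83 and 1.53. That scaling reversed LHCB4.3 (0.12), PSBO2 (0.14) and PSBS (0.094) in big, LHCB4.3 (0.10), PSBO2 (0.04) and PSBS (0.024) in mips1 big against Col-0 and PSAN (0.035) in mips1 big against big. In big it ended the calls of LHCA5, LHCA6, LHCB1.2 and PSBY (adjusted p from 0.0998 to 0.729). In mips1 big against big it ended those of LHCA5, LHCB2.1, LHCB2.2, PSAH1, PSAH2, PSBQ1 and PSBY (adjusted p from 0.0573 to 0.326).

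In mips1 against Col-0, 1 gene, LHCB4.3, was called higher with RLE size factors, library totals alone, DESeq2, no filter beyond 1 count and at least 10 counts in every library. The median there was -1.88 with RLE factors and DESeq2, -1.87 with no filter, -1.88 with at least 10 counts, -1.91 with TMM factors without the 43 genes and -1.92 without organelle genes. Asking also for a log2 fold change of at least 1 left 2 genes lower in big. In mips1 big, this cut left 22 lower against Col-0, 0 against big, and 0 lower and 13 higher against mips1. For the interaction it left 0 lower, and the 42 genes called higher all stayed, LHCA5 being lowest of them at 1.05. No share of all tested genes at this cut is given against mips1 or for the interaction, so those counts stand without that comparison. With paralogues summed, 0 were lower in mips1 big against mips1 and 0 for the interaction, since LHCB4.3 no longer stood alone. Organelle genes left out likewise gave 0 lower for the interaction. The cause of the other shifts was not tested.

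Same-numbered libraries did not deviate together (r from -0.22 to 0.21), so the replicate number was not taken as a pairing. With it as a block, 0 genes were lower for the interaction, as LHCB4.3 lost its call (adjusted p = 0.0522). In mips1 big against big, 37 of the photosystem and antenna genes were then lower, beside 2355 of all tested genes.

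Leaving out 1 library at a time, with the lone library assumed to vary like the others, gave medians of -1.92 to -1.88 in mips1, -1.07 to -0.99 in mips1 big against Col-0, -0.38 to -0.32 against big and 0.79 to 0.88 against mips1. The count higher in mips1 was 0 to 1, the count lower for the interaction 0 to 1, and the count lower in mips1 big against big 18 (without big replicate 1) to 41. LHCB4.3 ranged from -0.29 to 0.014 and PSBO2 from -0.26 to 0.013 in big, both above 0 without Col-0 replicate 2, and PSAN from -0.15 to 0.018 in mips1 big against big, above 0 without big replicate 1. In mips1 big against Col-0, LHCB4.3 lost its call without Col-0 replicate 2 or mips1 big replicate 2, and PSBO2 without mips1 big replicate 2. In big, LHCA6 lost its call without big replicate 2.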
